A study of Mus musculus with 13 samples.

Results

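C/EBPα binding was examined at 10 genes of transcription factors that act in hematopoietic stem and progenitor cells, Runx1, Gata2, Tal1, Lmo2, Lyl1, Myb, Ikzf1, Gfi1b, Cbfb and Zfpm1. The regions belonging to these genes were chosen by position alone, as the candidate C/EBPα regions whose centre lay within 100 kb of the annotated transcription start site (TSS) or inside the gene. This gave 26 of the 17899 candidate regions of the list, and each of the 26 belonged to 1 gene only. The list came from ChIP-seq, the sequencing of DNA fragments recovered with an antibody to the protein of interest, in this case C/EBPα. The cells were LSK cells, bone marrow cells sorted as Lin- Sca-1+ Kit+. This gate takes in stem cells, but most of what it holds are progenitors that have lost long-term self-renewal. The mice were C57BL/6 with cebpa flox/flox and Mx1Cre, a Cre recombinase under the interferon-inducible Mx1 promoter, and the labels of this library do not say whether the floxed alleles were recombined. Of the 13 samples of the study, the other 12 were not analysed here. There is 1 deposited list, so no value below has a replicate check and no test between conditions was possible.

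The factors of this group hold stem and progenitor cells in their state and open the way to single lineages. Runx1 is the DNA-binding subunit of core binding factor and Cbfb is its partner, which does not itself contact DNA. Tal1 and its relative Lyl1 are basic helix-loop-helix factors that bind E-boxes, and Lmo2 is an adaptor that links them to GATA factors such as Gata2. Zfpm1 is a cofactor of GATA factors, Gfi1b is a zinc finger repressor of erythroid and megakaryocytic cells and of stem cells, Myb keeps progenitors proliferating, and Ikzf1 is the Ikaros factor of lymphoid development. C/EBPα binds DNA as a dimer through a basic leucine zipper, each partner reading one side of a palindrome, of which TTGCGCAA is the best known form.

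Each region carries the score given by MACS, −log10 of its p-value against an IgG mock, multiplied by 10. The lowest score, 50, stands for a p-value of 1e-05. These are candidates as called, on which the authors had not yet run their later filters, and no read number is attached to a region, which leaves its depth unknown. Among the 26 regions 4 had a score of 200 or more, at Tal1 (2 regions), Runx1 and Gata2. This is 15.4% of the regions, where 2.06% of all candidates reached that score. The 10 genes were chosen with earlier results of these data known, so this contrast is a description. Sequence around 3 of these regions, 1 each at Tal1, Runx1 and Gata2, and around a region in Myb is shown first, since the results turn on them. Each stretch is the plus strand of mm9, 5′ to 3′, from 50 bases before to 50 bases after the pair formed by the region centre and the C/EBP word nearest to it. Capitals mark C/EBP words, which are TTACNNAA or TTGCNNAA on either strand.
Tal1, intron 1, score 585.58, chr4:114729496-114729673: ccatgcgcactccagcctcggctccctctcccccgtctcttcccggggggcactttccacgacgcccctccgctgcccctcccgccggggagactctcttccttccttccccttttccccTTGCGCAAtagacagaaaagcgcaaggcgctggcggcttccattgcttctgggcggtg
Runx1, intron 2, score 449.97, chr16:92715767-92715912: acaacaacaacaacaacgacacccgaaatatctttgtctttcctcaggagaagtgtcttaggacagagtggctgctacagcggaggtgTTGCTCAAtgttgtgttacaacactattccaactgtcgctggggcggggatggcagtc
Gata2, upstream, score 240.02, chr6:88116210-88116455: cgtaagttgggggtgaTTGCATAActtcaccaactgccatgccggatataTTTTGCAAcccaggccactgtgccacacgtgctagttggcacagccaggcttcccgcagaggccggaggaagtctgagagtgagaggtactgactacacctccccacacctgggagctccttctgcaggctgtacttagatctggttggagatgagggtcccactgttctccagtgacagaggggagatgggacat
Myb, intron 1, score 118.34, chr10:20876339-20876446: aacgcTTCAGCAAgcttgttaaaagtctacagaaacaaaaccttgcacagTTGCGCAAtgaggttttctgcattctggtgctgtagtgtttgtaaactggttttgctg
The Tal1 and Myb stretches hold the palindrome TTGCGCAA. The Runx1 word is TTGCTCAA, and the Gata2 stretch holds TTGCATAA and TTTTGCAA, which reads TTGCAAAA on the minus strand.

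**Figure D1:**
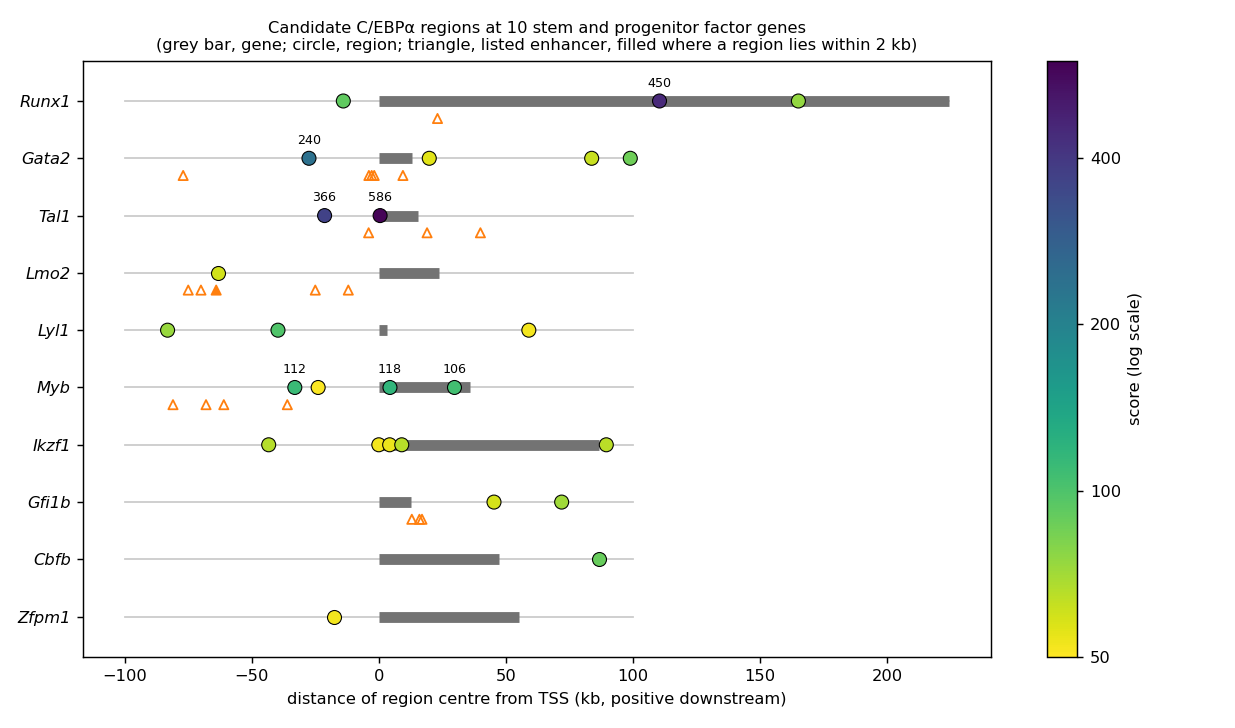
Positions of the 26 candidate C/EBPα regions (circles) relative to the TSS of each gene in kb, coloured by score on a log scale, with scores of 100 or more printed. Grey bars are the genes and triangles the listed enhancers, of which 1, at Lmo2, has a region within 2 kb; the 4 regions with a score of 200 or more lie at Tal1, Runx1 and Gata2.

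Tal1 had the strongest region of the group. Its region at chr4:114729105-114729987 scored 585.58, was 883 bp wide and ranked 77 in the whole list. The centre lay in intron 1, 515 bp downstream of the TSS of the longest transcript at 114729031 and 497 bp upstream of the next annotated TSS at 114730043. The region covered neither of them, with gaps of 74 and 56 bp, and so filled the space between these promoters. Its GC content was 64.1%, against a median of 48.7% for all candidates, it held 85 CpG dinucleotides and 5 SP1 words, and no 32-base word of it occurred elsewhere in the genome. The palindrome in it lay at 114729616 to 114729623, 74 bp from the region centre, and thus just outside the 70 bp that were searched around centres. The other region of Tal1 scored 366.11 and ranked 159. It lay 21.3 kb upstream of the TSS in intron 13 of the neighbouring gene Stil, with Tal1 as its nearest TSS. It also held a palindrome, 144 bp from the centre. No region lay elsewhere in the 200 kb around the Tal1 TSS.

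Runx1 had 3 regions in its 325 kb window, which is wider than that of the other genes because the gene spans 225 kb. The region with the highest score, 449.97 and rank 119, was at chr16:92715475-92716159. It lay in intron 2, 110494 bp downstream of the distal TSS and 18.2 kb upstream of the first of the proximal TSSs at 92697573, hence between the distal and the proximal promoter of the gene. The word TTGCTCAA lay 42 bp from its centre and a further word, TTACTCAA, 203 bp from it. The region also held 5 GATA words and 1 SP1 word but 0 ETS or RUNX words. The second region, at chr16:92840041-92840504 and 464 bp wide, scored 91.66 and lay 14.0 kb upstream of the distal TSS at 92826311. It held none of the words searched. The third, at chr16:92660841-92661467 in intron 5, scored 75.07 and held 6 GATA words and no C/EBP word. In this last region 58.1% of the 32-base words occurred elsewhere in the genome, the highest share of the 26 regions, and what part this has in its call was not tested.

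Gata2 had 4 regions, with scores of 240.02, 86.89, 61.56 and 55.85. The first of these stood apart from the others. It was at chr6:88116007-88116802, ranked 276 in the list and lay 27.5 kb upstream of the distal TSS at 88143885, in intergenic sequence. It held 3 C/EBP words, TTCCGTAA, TTGCATAA and TTTTGCAA, starting at 88116207, 88116226 and 88116260 and all on the 5′ side of the centre on the plus strand, together with 1 ETS word, AGGAAGT, 1 GATA word and 2 E-box words. The other 3 regions lay downstream of Gata2, at 19.9, 83.8 and 99.0 kb from its TSS, and all of them were nearer to the TSS of Dnajb8. The nearest of these, at chr6:88163468-88164037, was intergenic, scored 55.85 and held 1 C/EBP word, TTGCAAAA, at its very start, 281 bp from the centre. Those at chr6:88227357-88227991 and chr6:88242551-88243211 lay in introns 6 and 5 of Eefsec and scored 61.56 and 86.89, the latter with TTGCTGAA at 72 bp from its centre and 1 RUNX word. No region lay in the body of Gata2.

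Myb had 4 regions, and for all of them Myb was the gene with the nearest TSS. Their scores were 118.34 in intron 1, 111.55 at 33.1 kb upstream, 106.07 in intron 15 and 50.50 at 23.9 kb upstream. The first 3 were above the 100 reached by 20.3% of all candidates, and below 200. The intron 1 region, at chr10:20876228-20876552, was the narrowest of the 26 with 325 bp. Its palindrome at 20876389 to 20876396 lay 3 bp from the centre, 4401 bp downstream of the TSS at 20880790, with a second C/EBP word, TTCAGCAA, 42 bp from the centre. The intron 15 region, at chr10:20850715-20851283, held TTGCAAAA at 60 bp from its centre. The upstream regions, at chr10:20913488-20914200 and chr10:20904340-20904970, held no C/EBP word, and the first of them, with a width of 713 bp, held 1 ETS, 2 GATA and 1 SP1 word. The weakest of the 4, with a score of 50.50, had 34.3% of its 32-base words elsewhere in the genome.

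Ikzf1 had 5 regions, the largest number of the 10 genes, with scores from 52.43 to 66.01, all below the list median of 73.8. It was also the 1 gene of the 10 with a region over an annotated TSS, where 2.16% of 22359 protein-coding genes had one. The region at chr11:11585882-11586566 covered TSSs at 11585928, 11586216, 11586232 and 11586448, and its centre fell in exon 1 of the longest transcript, in the part that is 5' UTR. It scored 52.43, had a GC content of 66.6% and held no C/EBP word. The region at chr11:11590208-11590772 covered the TSSs at 11590265 and 11590335, scored 53.58 and held TTGCTTAA 153 bp from its centre. The third region at the start of the gene, at chr11:11594945-11595555 and 9.03 kb downstream of the TSS, scored 65.37 and held TTCTGCAA 54 bp from its centre. The remaining regions, at chr11:11542594-11543166 and chr11:11675391-11676140, lay 43.3 kb upstream and 89550 bp downstream, scored 66.01 and 64.76 and held no C/EBP word. They held 4 and 3 E-box words. Ikzf1 thus had many regions near its start, and none of them scored high.

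The other 5 genes had 8 regions between them, and no score reached 100. At Lyl1 the 3 regions scored 99.33, 73.02 and 52.46 and lay in other genes. The first, at chr8:87185413-87185930, was in the 3' UTR of Ier2, 39.7 kb upstream of the Lyl1 TSS at 87225356. The second, at chr8:87141947-87142502, was in intron 38 of Cacna1a, 83.1 kb upstream, and the third, at chr8:87284075-87284746, in intron 2 of Nfix, 59.1 kb downstream. The Ier2 region, which had 1 C/EBP word at 5 bp from its centre, is shown because it is the only region of these 5 genes with any C/EBP word, in the same notation as above.
Lyl1 window, Ier2 3' UTR, chr8:87185652-87185681: actctgaccgcTTGCACAAgcgtgcccact
At Gfi1b the 2 regions scored 71.33 and 58.81 and lay at chr2:28405236-28405820 in intron 16 of Ralgds and at chr2:28431862-28432450 in intron 3 of Gtf3c5, 72.0 and 45.3 kb downstream of the TSS. Cbfb had 1 region, with a score of 88.84, at chr8:107781155-107781541, 86.8 kb downstream of the TSS at 107694574. Zfpm1 had 1 region, with a score of 52.11, at chr8:124787892-124788832 in an intron of Gm20388, 17.7 kb upstream. It was the widest of the 26, with 941 bp, and held 2 ETS words. Lmo2 had 1 region, with a score of 59.0, at chr2:103734534-103735116, 63.3 kb upstream of the distal TSS at 103798152. No region lay inside any of these 5 genes.

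**Figure D2:**
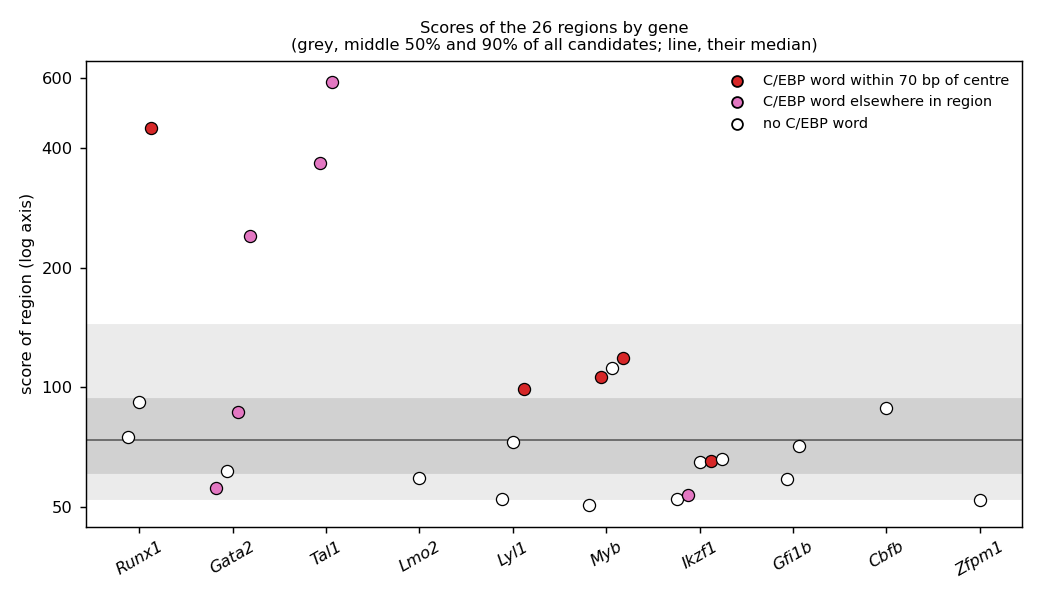
Score (log axis) of each of the 26 regions by gene, with the colour giving the place of a C/EBP word. Dark and light grey bands hold the middle 50% and 90% of all candidates and the line is their median of 73.8; 4 regions, at Runx1, Gata2 and Tal1, lie above the bands, and 3 Myb regions lie in the upper part of the light band.

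The order of the 10 genes by number of regions was not their order by score. All 10 had a candidate region in their window, as did 80.3% of the 22359 protein-coding genes, which is the background for the presence of a region. The density was 0.5 regions per 100 kb of window for Lmo2, Cbfb and Zfpm1, 0.924 for Runx1, 1.0 for Tal1 and Gfi1b, 1.5 for Lyl1, 2.0 for Gata2 and Myb and 2.5 for Ikzf1. The median was 1.0 for the 10 genes and 1.0 for all genes, and 94.4% of genes had a lower density than Ikzf1. By their highest score the order was different. Of all genes, 98.5% had a lower highest score than Tal1, 97.8% than Runx1, 95.5% than Gata2 and 82.2% than Myb, against 35.6% for Ikzf1 and 27.5% for Lmo2. Genes with no region in their window, 19.7% of all, were counted as lower in these shares. The shares were not scaled for the length of the window, which was 325 kb for Runx1 and 200 kb for the others of the 10. The highest region of Runx1, at 110494 bp from the TSS, belongs to its window only through the gene body. A region of score 100 or more was found at 4 of the 10 genes (Tal1, Runx1, Gata2 and Myb; 28.9% of all genes), and one of 200 or more at 3 (5.5% of all genes). The median score of the 26 regions was 72.2, close to the 73.8 of the list, and their median width was 619 bp against 587 bp. The distance from the TSS to the nearest region centre had a median of 18.8 kb for the 10 genes and 39.3 kb for all genes, with a range from 8 bp at Ikzf1 to 86.8 kb at Cbfb. As the 10 genes were chosen with earlier results of these data known, these contrasts with all genes are descriptions.

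**Figure D3:**
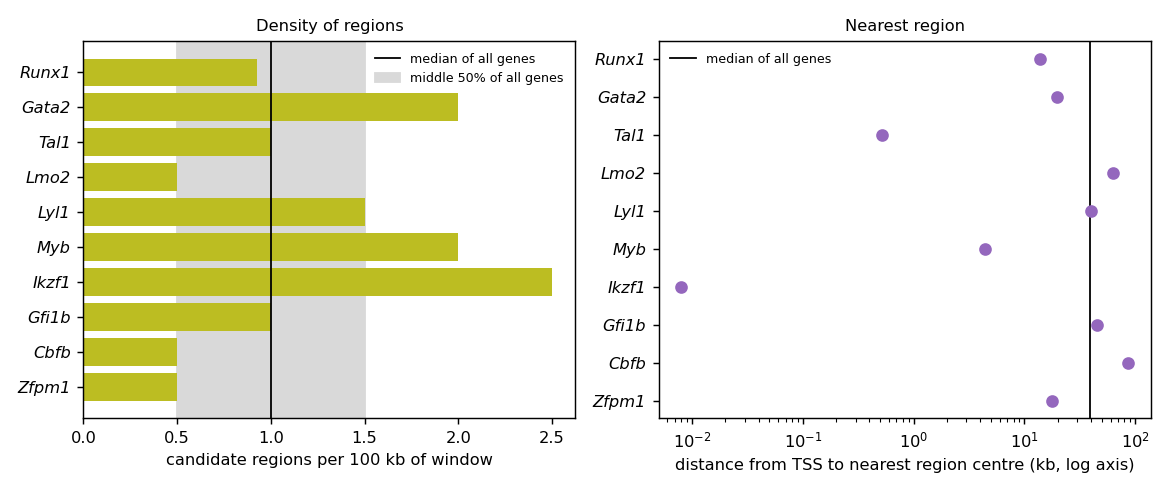
Left, candidate regions per 100 kb of window for each gene, with the median (line, 1.0) and the middle 50% (grey, 0.5 to 1.5) of all protein-coding genes. Right, distance from the TSS to the nearest region centre in kb on a log axis, with the median of all genes (line, 39.3 kb); Ikzf1, Tal1 and Myb have a region within 5 kb.

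Of the 26 regions, 13 had the TSS of their own gene as the nearest one, and these included all 7 regions with a score of 100 or more. Their median score was 106.0. For the 13 regions that lay nearer to the TSS of another gene the median was 66.0 and the highest score 99.33. The 7 regions with a score of 100 or more came from 4 genes. The same split was not made for the windows of all genes, so it has no background here. By the position of their centre, 15 regions (57.7%) lay in introns, 7 of the member gene and 8 of a neighbour, 9 (34.6%) were intergenic, and 1 each lay in a 5' UTR and a 3' UTR. In the whole list 40.8% of the regions were intronic and 53.2% intergenic. The whole list also holds regions far from any gene, which the rule of 100 kb or the gene body leaves out. The shares of the 26 regions and of the list are therefore not on equal terms. At the edge of the rule, the Gata2 region with a score of 86.89 was the last inside, at 98996 bp from the TSS, and a region with a score of 81.32 lay just outside for Tal1, at 103 kb.

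C/EBP words were found in some regions of high and of low score. Within 70 bp of the centre a C/EBP word was found in 5 of the 26 regions (19.2%, exact 95% binomial interval 6.55 to 39.4%), at 4 of the 10 genes, Runx1, Lyl1, Ikzf1 and, with 2 regions, Myb. Of all genes 19% had such a region. In all candidates the share of regions was 10.6%, which lies within that interval. In flanking windows of equal length, centred 1000 bp away, the shares were 13.5% of 52 windows for the 26 regions and 12% for all candidates. The intervals cover counting error only. Anywhere between start and end, 11 of the 26 regions (42.3%) held a word, against 36.3% of all candidates. The 11 comprised 6 of the 7 regions with a score of 100 or more and 5 of the 19 below (26.3%). In all candidates the share was 81.2% from a score of 200, 40.5% from 100 to 200 and 34.2% below 100. These shares do not take width into account. The median widths of these classes were 786, 600 and 585 bp. For the 26 regions they were 685 bp from a score of 100 and 589 bp below. Near the centre, 1 of the 4 regions with a score of 200 or more held a word, and 2 of their 8 flanking windows did. In the list as a whole the difference between centres and flanks varied with the score and with the form of the word. For the 368 candidates with a score of 200 or more C/EBP words were found at 46.5% of centres against 10.9% of flanks, and from 100 to 200 at 12.4% against 12.9%. Below 100 the centres were under the flanks in each of 3 classes, with 8.96% against 10.8% from 50 to 60 and 8.94% against 12% from 60 to 80. With TTGCNNAA alone, the form without TTACNNAA, the shares were 42.7% against 6.25% from 200 and 8.92% against 5.96% from 100 to 200, the class of 3 Myb regions. Below 100 they were 6.06% against 5.51% from 50 to 60, 5.95% against 5.91% from 60 to 80 and 6.64% against 6.24% from 80 to 100, so that the lower shares at centres in these classes depend on counting TTACNNAA. Of the 26 regions 19 fell below 100, including every region of Ikzf1, Lyl1, Gfi1b, Cbfb, Zfpm1 and Lmo2.

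**Figure D4:**
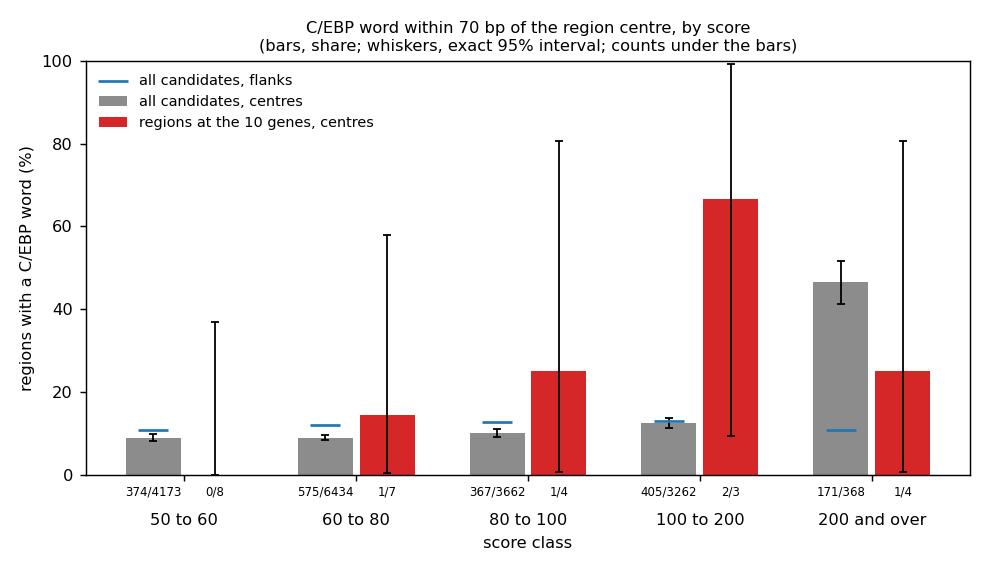
Share of regions with a C/EBP word within 70 bp of the centre by class of score, for all candidates (grey) and the regions at the 10 genes (red), with exact 95% intervals and counts. Blue marks give the share in flanking windows of all candidates; for the word as plotted, TTACNNAA or TTGCNNAA, grey bars lie above them from a score of 200, with 46.5% against 10.9%, and not in the lower classes, whereas for TTGCNNAA alone, which is not plotted, the share is also above the flanks from 100 to 200, with 8.92% against 5.96%.

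The palindrome TTGCGCAA, the word shared by the Tal1 and Myb regions, occurred 5 times in the windows of the 10 genes, 2 times at Tal1, 1 time at Myb and 2 times at Ikzf1. At Tal1 and Myb all 3 occurrences lay inside a candidate region, whereas both occurrences at Ikzf1 lay outside one. Over all chromosomes of the list 182 of 2120 occurrences (8.58%) lay in a candidate region. In turn 3 of the 26 regions (11.5%) held the palindrome, against 1.02% of all candidates and 22.6% of those with a score of 200 or more. The Ikzf1 occurrences, shown for comparison with those inside a region, lie in introns 5 and 7, at 71.6 and 76.0 kb from the TSS and 17.6 and 13.2 kb from the nearest region. The capitals again mark the palindrome.
Ikzf1, intron 5, no region, chr11:11657773-11657802: ttcttagagacTTGCGCAAcctcattttgc
Ikzf1, intron 7, no region, chr11:11662222-11662251: atttcccagctTTGCGCAAgtactcactgg

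The words of other factors were counted in the same way on both strands, anywhere between start and end of a region. ETS words (AGGAAGC or AGGAAGT or CGGAAGC or CGGAAGT) were in 6 of the 26 regions (23.1%, against 33.9% of all candidates), and RUNX words (TGTGGTT or TGTGGTC or TGCGGTT or TGCGGTC) in 3 (11.5%, against 24.6%). GATA words (AGATAA or AGATAG or TGATAA or TGATAG) were in 14 (53.8%, against 59.0%) and E-box words (CAGCTG or CAGATG) in 12 (46.2%, against 62.9%). The SP1 word CCCGCCC was in 7 regions (26.9%, against 5.94%). Of the 7 regions with a score of 100 or more 5 held a GATA word, 2 an ETS word, 3 an E-box word, 3 the SP1 word and 0 a RUNX word. For all candidates from a score of 200 the shares were, in the same order, 59.8%, 59.8%, 62.2%, 25.5% and 40.8%. From 100 to 200 they were 61.5%, 33.8%, 62.4%, 5.82% and 25.3%. In the stretches printed above, the Runx1 sequence holds the SP1 word on the minus strand at base 130 and the Gata2 sequence AGGAAGT at base 117. Neither overlaps a C/EBP word. With 26 regions these shares are imprecise, they do not take the width of regions into account, and a word in the sequence is not a measured site.

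Known enhancers of these genes are named by their distance in kb from the gene start, and 21 of them were listed for 6 of the genes. A region counted when it came within 2 kb of the nominal position. The genome as a whole has 3.05% of its positions that close to a candidate region. This share counts all positions, also those far from genes. The list has 0.674 regions per 100 kb over the genome, against a median of 1.0 in the windows of all genes. A share for positions near genes alone was not computed. With the TSS of the longest transcript as the start, 1 of the 21 had a region and 20 had none. The stem cell enhancer of Runx1 at +23 lay 36.7 kb from the nearest region. The enhancers of Gata2 at -77, -3.9, -2.8, -1.8 and +9.5 lay at least 10.1 kb from one. The +9.5 element carries an E-box followed by a GATA site, and this pair, CATCTG and AGATAA at a spacing of 8 bases, was found in intron 4 of Gata2, from 88153179 to 88153198 on chromosome 6, 9294 bp from the distal TSS. It is shown because it fixes the place of the enhancer by sequence, with the E-box and the GATA site in capitals.
Gata2 +9.5 composite, chr6:88153179-88153198: CATCTGcagccggtAGATAA
The nearest candidate region lay 10.3 kb from it.

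At Tal1, the enhancers at -4, at +19, which is active in stem cells, and at +40, which is active in erythroid cells, lay 4.07, 18 and 39.0 kb from the nearest region, which was the strong region in intron 1. For the -4 element this depends on the start used, since its nominal position comes within 2 kb of this region, the one with a score of 585.58, when it is counted from the TSS at 114732113. It also has the region with a tolerance of 5 kb. At Myb the enhancer at -36 was the closest to a region, at 2.59 kb from the one with a score of 111.55, and those at -61, -68 and -81 had none within 27 kb. The enhancers of Gfi1b at +13, +16 and +17 lay 28.1 kb or more from a region. The 1 enhancer with a region was Lmo2 -64, at 0.382 kb from the region with a score of 59.0. The assignment depends on the start used, since the same region lies within 2 kb of the nominal position of Lmo2 -75 when positions are counted from the proximal TSSs of Lmo2, between 103809685 and 103810444. The enhancers at -70, -25 and -12 had no region with either start. The Lmo2 region held no C/EBP word and 2 GATA words, and its score was below the list median.

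After the regions had been seen, 8 further elements were looked up, at Runx1 and Gata2, so their result is a description. The element of Runx1 named +110 lay 152 bp from the edge of the region with a score of 449.97. The other 7 had no region within 2 kb, the nearest being 16.6 kb away. With the TSS of the longest transcript as the start, the regions of Tal1 in intron 1 and in Stil, of Gata2 at 27.5 kb upstream and of Myb in intron 1 came within 2 kb of none of the elements listed. The exception with another start is the Tal1 region in intron 1, for the -4 element as given above. The elements are not a complete list of the enhancers of these genes.

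Of 20 further genes of stem and progenitor factors, 19 were found by name among the protein-coding genes taken from the annotation. Gfi1 was not found there under this name and was not counted. A region was found in the window of 15 of them, 4 had one with a score of 100 or more, and 3 had one of 200 or more. Over all protein-coding genes the shares were 80.3%, 28.9% and 5.5%. The highest scores were 720.12 at Nfe2, a leucine zipper factor of erythroid and megakaryocytic cells, 641.56 at Runx2 and 393.95 at Fli1. Nfe2 was also the 1 gene of these 19 with a region over a TSS. The 50 regions of these genes had a median score of 69.0, 6 of them reached 100 and 3 reached 200, against 7 and 4 of the 26 regions. Of all candidates 20.3% reached 100 and 2.06% reached 200. No region was found in the windows of Gata1, Gata3, Ikzf2 and Hlf. These genes too were chosen with earlier results of these data known, and no test was made between the groups of genes.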

How the data were processed

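LSK cells were sorted and C/EBPα ChIP-seq was performed by the authors. Per the submitters' processing notes, Bowtie 0.12.8 was used on mm9 and regions were called with MACS 1.4.2, with an IgG mock as control at a p-value threshold of 1e-05. The paper's methods name another version of bowtie. The deposited list holds positions and a score, which the authors' caller gives as 10 times the negative log10 of the p-value. The sources used here do not say whether the call rests on 1 library or on pooled ones. The list precedes the authors' filters on peak height, presence in both C/EBPα samples, IgG level, clustering and inspection, so it includes regions that they removed. The list holds neither read totals nor expression values, and values from the paper's supplements were not used here, so depth and the sorted cell type were not checked.

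The genome NCBIM37, which is mm9, and GENCODE M1 were used. Each of 22359 protein-coding genes was represented by its protein-coding transcript with the longest span, which may differ from the RefSeq isoform used by the authors. Positions are 1-based and a region's centre stands in for its summit, which the list does not give. The members and lists were chosen with earlier results of these data known. All 10 genes were described, with the 2 highest regions of each gene, every region over a TSS and every region at a listed enhancer, and the remaining regions were added. Words were counted within 70 bp of centres and in windows 1000 bp to each side, and word counting was tested on simulated sequence. The 32-base words of each region were counted in the whole genome on both strands. Intervals are exact Clopper-Pearson intervals at 95%. Sequence is printed for a few regions, and 1 further stretch is not reported here. No test was run, since there is 1 list. Alternatives covered distance, TSS, score, window, word and tolerance. Sequence was read with samtools 1.23.1 and pysam 0.24.0 and computed on with Python 3.11.15, numba 0.67.0, pandas 2.3.3, numpy 2.4.6 and scipy 1.17.1, and matplotlib 3.10.9 drew the figures.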

Additional observations from a re-analysis of the deposited data

How the results depend on the processing

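The number of regions at the 10 genes was 26. It was 51 with 200 kb in place of 100 kb around the TSS and 7 with a score of at least 100, and stayed within 1.5 times of 26 with 50 kb, with any annotated TSS and with any overlap in place of the centre. The share of regions with a C/EBP word was 19.2% near the centre, 42.3% over the whole region and 42.9% for regions with a score of at least 100, of which there are 7. With 150 bp to each side (34.6%) and with TTGCNNAA alone (19.2%) it stayed within the interval of the main value. The median score of 72.2 became 106.0 when only regions nearest to the TSS of their own gene were kept, and 68.7 without the Tal1 regions, which was chosen after seeing the data. The count of listed enhancers with a region was 1 with a tolerance of 2 kb or 1 kb, 3 with 5 kb (adding Tal1 -4 and Myb -36), 3 with any annotated TSS as the start (adding Tal1 -4 and Lmo2 -75), and 2 with the 8 further elements chosen after seeing the data. The number of genes with a region over a TSS was 1, and 2 when a region centre within 1 kb was counted, the added gene being Tal1. No paired analysis was possible because 1 list was analysed and no result comes from a test. The list itself has no read numbers and no replicate, and the authors' filtered set was not used here. Depth and reproducibility of a region are therefore not given. The paper's final set holds fewer regions than the 3630 candidates with a score of 100 or more. Candidates with a score of 100 or more were thus removed by the authors' later filters, as were low-scoring ones. Which of the 26 regions remained was not checked.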
